A study of Mus musculus with 6 samples.

Results

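The genes described here encode the Golgi enzymes that build and cap the sugar chains of surface proteins and lipids: sialyltransferases, GalNAc-transferases, galactosyltransferases, GlcNAc-transferases, fucosyltransferases and the mannosidases that trim N-glycans. Members were the rows of the deposited table whose Ensembl ID mapped to a mouse symbol of the St3gal, St6gal, St6galnac, St8sia, Galnt, B3gnt, B4galt, B3galt, Gcnt, Fut, Mgat, Man1a or Man2a families followed by a number, with C1galt1 and C1galt1c1. This took in 53 of the 13675 genes in the table. Of 85 such protein-coding symbols in the annotation, the other 32 were not analysed here. Galnt6os, an antisense RNA, was left out because it encodes no enzyme.

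Expression was measured by RNA sequencing in 6 libraries, 3 labelled KO and 3 labelled WT. The KO cells were OT-I CD8+ T cells, which carry a transgenic receptor for an ovalbumin peptide, with loxP-flanked CK2α alleles (CK2αfl/fl) and Cre under the distal Lck promoter, dLck-Cre, a promoter that acts late in T cell maturation. The WT cells were OT-I CK2αfl/fl cells without Cre, so both groups carried the OT-I receptor and the floxed CK2α gene. Cells of each kind, marked by CD45.2, were given to separate CD45.1 B6 hosts infected with Listeria monocytogenes expressing ovalbumin, and spleen CD8+ donor cells were sorted on day 7 of infection. The labels give no animal age and do not state if each of the 3 samples of a group was its own animal, and a p-value here therefore speaks only of the spread among these 6 libraries, which may be technical.

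Reads recovered from the table ranged from 14746864 to 22931296 per library. All 8 CD8 T cell markers examined were present in every library, with summed levels of 96083 to 103501 normalized counts in KO and 103059 to 110849 in WT libraries. Csnk2a1, the gene for CK2α, was higher in the KO-labelled libraries, with 2828, 2875 and 2786 normalized counts, against 1665, 1847 and 1645 in WT libraries (limma, adjusted p = 0.000865). This goes against the label. The deleted exons are not given in the labels, so a count over the whole gene does not check the deletion, and every direction below is that of the libraries labelled KO against those labelled WT. B cell transcripts were higher in the KO libraries. All 13 B cell markers summed to 5942, 8888 and 8250 normalized counts in KO libraries 1, 2 and 3, against 3674 to 4316 in WT libraries. Cd22 and Ighm were higher in each KO library, with values given below, and the other 11 stood apart in KO libraries 2 and 3 only. The 11 B cell markers other than Cd22 and Ighm summed to 423, 2473 and 2273 normalized counts in KO libraries 1, 2 and 3, against 469 to 540 in WT libraries, and their part in the results was not tested unless a value below says otherwise. Markers of other cell types are given with St6gal1 below.

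An N-glycan is trimmed by mannosidases and then branched by the GlcNAc-transferases of the Mgat family. An O-glycan starts with GalNAc on serine or threonine, gains galactose to form core 1, and is branched to core 2 by Gcnt1. Chains are extended with galactose and GlcNAc and capped by sialic acid or fucose. In CD8+ T cells these caps change with activation: naive cells carry core 1 chains capped by sialic acid, a cap that St3gal1 makes, and effector cells show more core 2 chains, the base of the ligands that bind P- and E-selectin on vessel walls. Transcript levels were measured here, and neither enzyme activity nor glycans.

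Levels can be compared between genes only per length, so normalized counts were divided by the kilobases of merged exon. Transcripts of a gene can share exons with a neighbour, so levels of overlapping genes are less certain. On this scale B4galt1, which adds the galactose of lactosamine chains, was the highest member in both groups, with a mean of 1066 per kb in KO and 1220 per kb in WT libraries. Galnt6, B4galt5 and Mgat2 came next, in an order that differed between the groups. Galnt6, which starts O-glycans, had 812 per kb in KO and 1026 per kb in WT libraries. B4galt5, the main lactosylceramide synthase, stood at 846 per kb in KO and 922 per kb in WT libraries, and Mgat2, which completes the biantennary N-glycan, at 883 per kb in KO and 882 per kb in WT libraries. The lowest was St6galnac3, with 1.03 per kb in KO and 1.14 per kb in WT libraries. Within the sialyltransferases, St3gal4, St3gal1 and St3gal6 made up the upper end. St6gal1, at 91.4 per kb in KO and 51.9 per kb in WT libraries, was below St6galnac4 in both groups, and below St8sia4 (80.3 per kb in KO, 92.8 per kb in WT) in the WT mean only. The core 2 enzyme gene Gcnt1 was low, at 21.1 per kb in KO and 17.8 per kb in WT libraries, which was 5.27% to 6.21% of the level of St3gal1 in KO libraries and 2.72% to 5% in WT libraries.

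**Figure D1:**
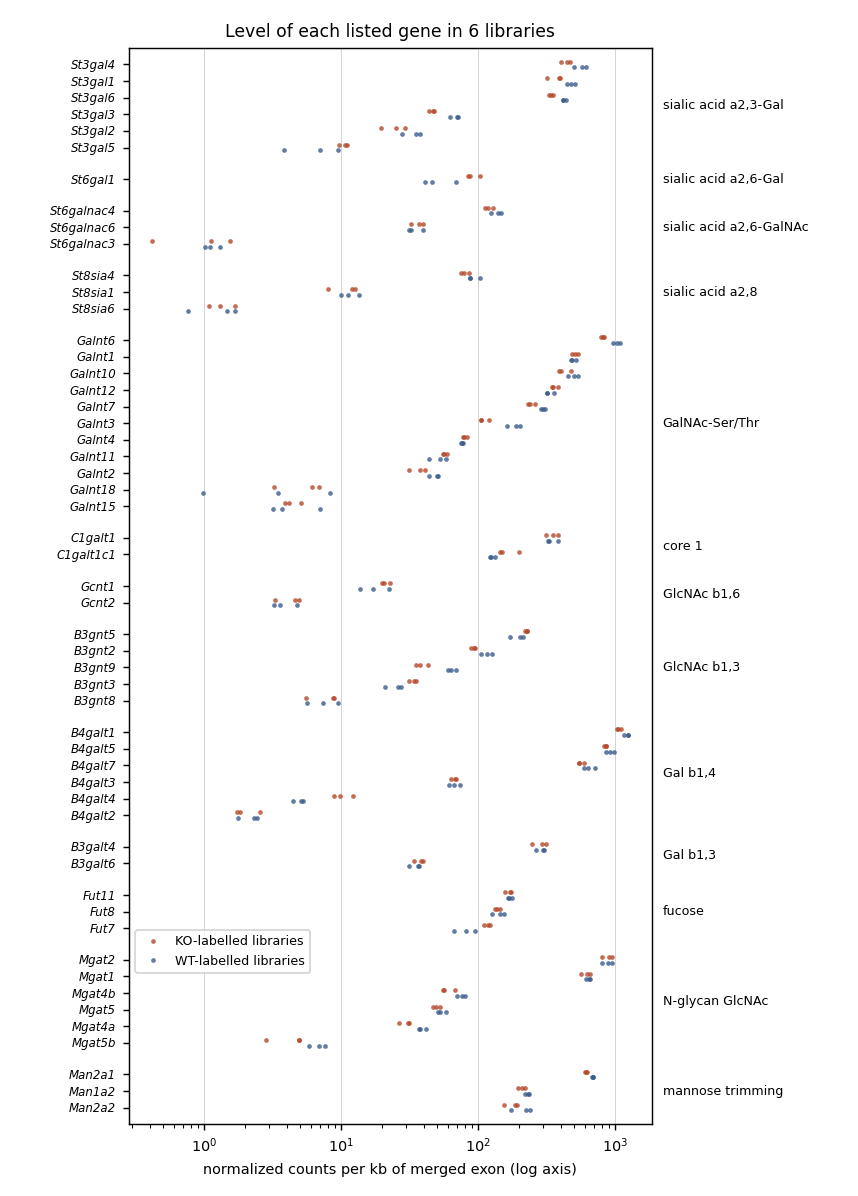
Normalized counts per kb of merged exon (log axis) for each of the 53 listed genes, grouped by the linkage made; each point is 1 library, 3 KO-labelled and 3 WT-labelled. B4galt1 (KO mean 1066, WT mean 1220 per kb) is at the top of the range and St6galnac3 (1.03 and 1.14) at the bottom.

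The KO and WT groups were compared with limma on a log2 scale, after adding a pseudocount of 1 to each normalized count, over all 13654 genes with a mean of at least 10. Of the 53 members 52 were tested, as St6galnac3 fell under the minimum. At an adjusted p below 0.05 over all genes, 9 of 52 members were called (17.3%), 8 lower and 1 higher in KO libraries. Of all tested genes 5.19% were called, 3.15% lower and 2.04% higher. The 8 were St3gal1, St3gal3, St3gal4, St3gal6, Galnt3, Galnt6, Galnt7 and B3gnt9, and the 1 was St6gal1. Without adjustment, 24 of 52 members and 2926 of all 13654 tested genes had p below 0.05 (limma). Counts at an unadjusted p in the classes and lists below are to be read beside that share of all genes. The median log2 fold change was -0.07 over the 52 members and 0.0061 over all tested genes, with 61.5% of members and 48.7% of all tested genes below 0. The 3 KO and 3 WT values did not overlap for 25 members (48.1%), 18 lower and 7 higher in KO, against 25.7% of all tested genes, 13.8% lower and 12% higher. The count of 9 rested on single libraries: it was 16 without WT library 2 and 1 or 2 without any other library. The count over all genes moved too: it was 708 with all libraries, 2028 without WT library 2 and 200 to 440 without any other library. The sampled populations are bulk, so fewer cells of a type and less RNA per cell cannot be told apart.

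**Figure D2:**
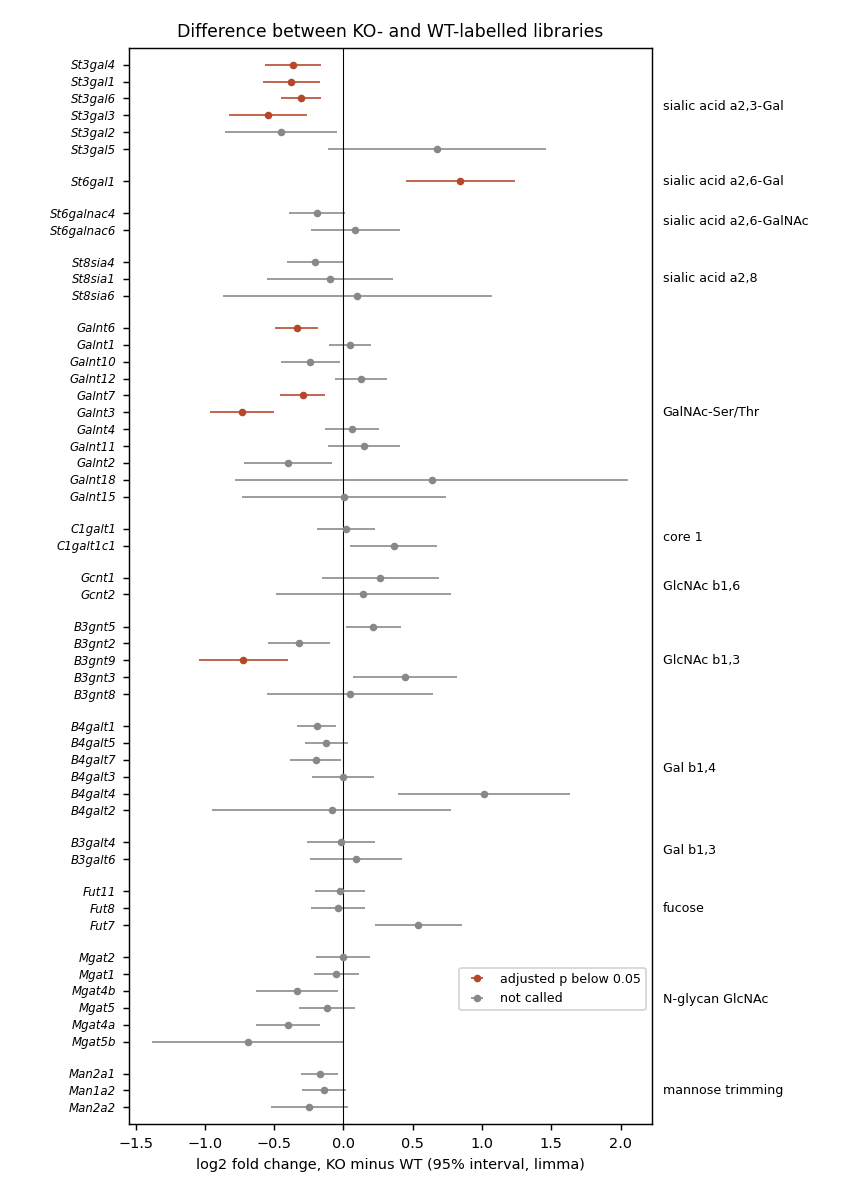
Log2 fold change (KO minus WT) with its 95% interval from limma for the 52 tested genes, grouped by linkage; coloured points passed an adjusted p of 0.05. St3gal1, St3gal3, St3gal4 and St3gal6 lie left of 0 and St6gal1 right of it at 0.84.

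Members with high levels leaned lower in KO libraries. Of the 19 members with a mean of 1000 normalized counts or more, 16 had a log2 fold change below 0 (84.2%) and the median was -0.19, where 59.5% of the 4113 genes at such levels were below 0 and their median was -0.04. Of the 9 tested members with a mean under 50, 2 were below 0 and none was called.

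The enzymes that add sialic acid in α2,3 linkage to galactose had 4 falls and no rise among 6 members in limma. DESeq2 called the same 4 genes, and edgeR called 2, St3gal3 and St3gal6. St3gal1 and St3gal4 were not called with edgeR (adjusted p = 0.058 and 0.0547) or with TMM factors (adjusted p = 0.0527 and 0.054). Their summed level was 1207, 1273 and 1212 normalized counts per kb in KO libraries 1, 2 and 3, against 1578, 1490 and 1651 in WT libraries. Each KO library lay below each WT library.

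St3gal1 (ENSMUSG00000013846, GRCm38 chromosome 15, 67102875 to 67176830) caps the galactose of core 1 O-glycans, and mouse CD8+ T cells lacking it expose uncapped core 1 chains. It measured 2184, 2676 and 2713 normalized counts in KO libraries, against 3243, 3069 and 3479 in WT libraries. KO library 1 was the lowest, and the groups did not overlap (KO mean 2524 ± 295, WT mean 3264 ± 206, SD, n = 3 each; log2 fold change -0.38, SE 0.09, limma adjusted p = 0.0472). With single libraries dropped in turn, it stayed called only without WT library 2 (adjusted p = 0.0118) and adjusted p went up to 0.194. It was called with the B cell marker level as a covariate (log2 fold change -0.57, adjusted p = 0.0465), as no other member was. That level, over 13 markers with Cd22 and Ighm among them, correlated with the KO label at 0.70 across the 6 libraries. The covariate and the label are therefore only partly separable, here and in the other values with this covariate.

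St3gal2, which acts on core 1 and on gangliosides, measured 98.2, 149 and 126 normalized counts in KO libraries, against 190, 141 and 177 in WT libraries. The groups overlapped through KO library 2 and WT library 2, and St3gal2 was not called (adjusted p = 0.188; log2 fold change -0.45 with a 95% interval of -0.86 to -0.04).

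St3gal3, St3gal4 and St3gal6 cap lactosamine, and St3gal4 and St3gal6 are known from mice to help make selectin ligands on leukocytes. St3gal6 measured 2105, 2177 and 2041 normalized counts in KO libraries, against 2567, 2698 and 2561 in WT libraries. The libraries of each group lay close together, and the gap was 1.24-fold (log2 fold change -0.31, SE 0.06, limma adjusted p = 0.0247). Dcbld2 shares 26% of the St3gal6 exon length on the other strand but measured 45.4 to 76 normalized counts in KO and 33.7 to 40.9 in WT libraries.

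St3gal4 measured 1372, 1293 and 1184 normalized counts in KO libraries, against 1679, 1477 and 1808 in WT libraries. The closest pair was KO library 1 and WT library 2 (1.29-fold lower in KO, log2 fold change -0.36, SE 0.09, adjusted p = 0.0495). Use of strand in counting is not given in the sources used here, and the antisense transcript 4930581F22Rik shares 14.1% of its exon length, with 313, 427 and 449 normalized counts in KO and 623, 458 and 507 in WT libraries, so the St3gal4 value is uncertain.

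St3gal3 was the lowest of the 4 by level and the one with the largest fall. It measured 131, 132 and 122 normalized counts in KO libraries, against 193, 174 and 196 in WT libraries (1.46-fold lower in KO, log2 fold change -0.54, SE 0.13, adjusted p = 0.0375). St3gal5, which makes the ganglioside GM3, was low, at 25.2 to 28.8 normalized counts in KO and 10.1 to 24.8 in WT libraries (adjusted p = 0.311). When single libraries were dropped, St3gal3, St3gal4 and St3gal6 were each called only without WT library 2, and their adjusted p went up to 0.172, 0.21 and 0.118.

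**Figure D3:**
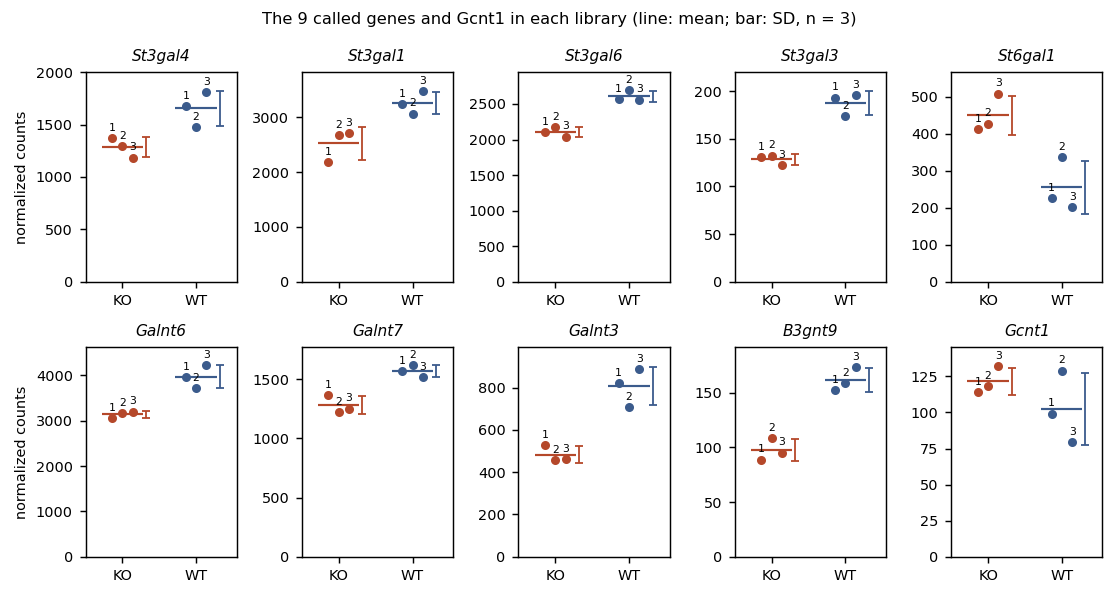
Normalized counts of the 9 called genes and Gcnt1 in each library, with KO left of WT; digits give the library number, horizontal lines the mean and bars the SD (n = 3). The groups do not overlap in the 9 called genes, and they do in Gcnt1 (114 to 132 in KO, 79.6 to 129 in WT).

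The transcript of the enzyme that adds sialic acid in α2,6 linkage to galactose was higher in KO libraries. St6gal1 (ENSMUSG00000022885, GRCm38 chromosome 16, 23224740 to 23360350), whose product makes the ligand of the B cell lectin CD22, measured 412, 427 and 509 normalized counts in KO libraries, against 226, 337 and 203 in WT libraries. WT library 2 was nearest to the KO libraries, and the groups did not overlap (KO mean 449.5 ± 51.9, WT mean 255 ± 71.8, SD, n = 3 each; 1.79-fold, log2 fold change 0.84, SE 0.18, limma adjusted p = 0.0238). Per kb, St6gal1 came to 9.78%, 10.3% and 13.3% of the summed St3gal3, St3gal4 and St3gal6 in KO libraries, against 4.33%, 6.82% and 3.74% in WT libraries. With single libraries dropped, St6gal1 was called only without WT library 2 (adjusted p = 0.000225), and adjusted p went up to 0.12.

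B cells also express St6gal1, so its values were set beside 13 B cell markers. In KO library 1 the 11 markers other than Cd22 and Ighm summed to 423 normalized counts, under the 469 to 540 of the WT libraries, and 1 of the 11 was above all WT libraries. St6gal1 measured 412 in that library, above each WT library. In KO libraries 2 and 3, all 11 markers were above every WT library. Cd22 and Ighm were higher in each of the 3 KO libraries: Cd22 measured 734, 1090 and 1045 normalized counts in KO and 328, 320 and 302 in WT libraries (log2 fold change 1.57, adjusted p = 0.000465), and Ighm 4784, 5325 and 4931 in KO and 2883, 3518 and 2903 in WT libraries (0.70, adjusted p = 0.0027). With KO libraries 2 and 3 left out, which leaves 1 KO library and no spread within KO, the log2 fold change of St6gal1 was 0.73. With the marker level as a covariate it was 0.74 (limma, adjusted p = 0.186). Of the 13 B cell markers 2 were called higher by limma and by edgeR and 6 by DESeq2; 11 had an unadjusted p below 0.05 in limma, and all 13 had a log2 fold change above 0 (median 1.5). Of 5 plasma cell markers 1 was called higher by each tool, with 2 at an unadjusted p below 0.05. Of the neutrophil, NK and erythroid markers none of 4, 5 and 6 was called by limma, with 4, 1 and 0 at an unadjusted p below 0.05; edgeR called none and DESeq2 called S100a9. The neutrophil markers summed to 220 to 315 normalized counts in KO and 79.7 to 218 in WT libraries. In limma, of 8 macrophage and monocyte markers 1 rose and 1 fell, and of 4 CD4 T cell markers 1 rose and 1 fell. Of 6 dendritic cell and 3 platelet markers 1 fell in each. The dendritic cell markers had 4 log2 fold changes above 0 and 2 below (median 0.64). In limma 4 of them had an unadjusted p below 0.05, and edgeR called Cd74 as well. These 4 lists hold genes that CD8+ T cells can also express, and which cells gave these values was not tested. Cd4 measured 13.9 to 19.8 normalized counts in KO and 11.9 to 21.0 in WT libraries.

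**Figure D4:**
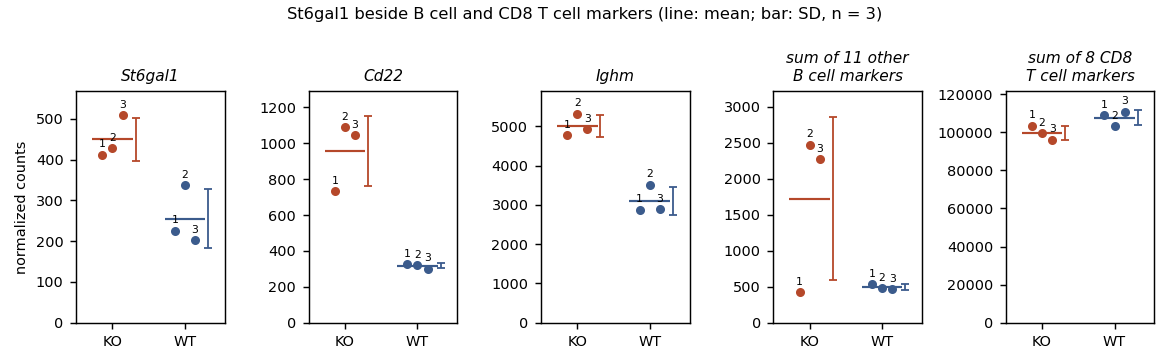
Normalized counts of St6gal1, Cd22, Ighm, the sum of the 11 other B cell markers and the sum of 8 CD8 T cell markers in each library, KO left of WT, with digits for library numbers, lines for means and bars for SD (n = 3). St6gal1 is at 412 in KO library 1, where the 11 markers sum to 423, and at 427 and 509 in KO libraries 2 and 3, where they sum to 2473 and 2273.

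The remaining sialyltransferases, which add sialic acid to GalNAc or to another sialic acid, did not pass in limma, edgeR or DESeq2, with 1 of 5 at an unadjusted p below 0.05 in limma. St6galnac4, which makes disialylated core 1 chains, measured 772, 834 and 726 normalized counts in KO libraries, against 909, 805 and 948 in WT libraries (log2 fold change -0.19, 95% interval -0.39 to 0.01, adjusted p = 0.261). St8sia4, one of the enzymes that make polysialic acid, measured 1739, 1518 and 1583 in KO libraries, against 1746, 2088 and 1759 in WT libraries. KO library 1 nearly met WT library 1 (log2 fold change -0.21, 95% interval -0.40 to -0.01, adjusted p = 0.217). St8sia1, the GD3 synthase, measured 75.6 to 118 normalized counts in KO and 93.0 to 126 in WT libraries (adjusted p = 0.836).

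The GalNAc-transferases, which place the sugar that every mucin-type O-glycan starts from, had 3 falls and no rise among 11 tested members in limma. DESeq2 called the same 3, and edgeR called Galnt3 and Galnt6 (Galnt7 adjusted p = 0.0547). Galnt3 and Galnt6 belong to one subfamily by sequence, and Galnt7 acts on peptides that already carry GalNAc. The largest fall was that of Galnt3 (ENSMUSG00000026994, GRCm38 chromosome 2, 66082766 to 66124994). It measured 529, 458 and 463 normalized counts in KO libraries, against 823, 708 and 887 in WT libraries. Every KO library was well under the lowest WT library (KO mean 483 ± 39.8, WT mean 806 ± 90.5, SD, n = 3 each; 1.66-fold lower in KO, log2 fold change -0.73, SE 0.10, limma adjusted p = 0.00489). Galnt3 alone among the members was called whichever of the 6 libraries was dropped (adjusted p at most 0.0362).

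Galnt6, the most abundant member of the class per kb, measured 3052, 3171 and 3203 normalized counts in KO libraries, against 3971, 3715 and 4229 in WT libraries (1.26-fold lower in KO, log2 fold change -0.34, SE 0.07, adjusted p = 0.0234). Its antisense RNA Galnt6os shares 11.4% of its exon length and measured 47.3 to 70.6 normalized counts in KO and 53.5 to 112 in WT libraries. Galnt7 measured 1366, 1225 and 1253 in KO libraries, against 1571, 1621 and 1518 in WT libraries (1.23-fold lower in KO, log2 fold change -0.29, SE 0.07, adjusted p = 0.0454). With single libraries dropped, Galnt6 was called only without WT library 2 and Galnt7 only without that library or KO library 1, and their adjusted p went up to 0.13 and 0.171.

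The other 8 members of the class did not pass. Galnt1 measured 2938, 2698 and 2824 normalized counts in KO and 2623, 2879 and 2694 in WT libraries (log2 fold change 0.05, 95% interval -0.11 to 0.20). Galnt10 had log2 fold change -0.24 (adjusted p = 0.18) and Galnt12 0.13 (adjusted p = 0.431). Galnt2 had -0.40 (adjusted p = 0.139), but 90.0% of its exon length is shared with another gene model on the same strand, so its count is uncertain. Summed over the class, the level was 2654, 2656 and 2624 normalized counts per kb in KO libraries, against 3036, 2944 and 3077 in WT libraries.

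Promoter windows were read for the called members that move together and for St6gal1, from RefSeq on GRCm38.p6. Each ran from 250 bases before to 50 after a transcription start, the one nearest to the annotated gene start. A window was found for 41 of 53 members and 7 of the 9 called. The windows of Galnt3, Galnt6, St3gal6 and St6gal1 are shown as those of the largest fall, the most abundant falling gene per kb, the α2,3 gene with the smallest p and the gene that rose, each 5′ to 3′ on the gene's strand. Capitals mark letters that match CAGGTG (an E-box bound by E proteins and ZEB factors), CAGCTG (a second E-box), GGGCGG (the GC box), CTTTGAT or CTTTGAA (TCF/LEF), GGTGTGA (T-box) or CCGGAAG (ETS) on either strand.
Galnt3, chr2:66124744-66125043, minus strand: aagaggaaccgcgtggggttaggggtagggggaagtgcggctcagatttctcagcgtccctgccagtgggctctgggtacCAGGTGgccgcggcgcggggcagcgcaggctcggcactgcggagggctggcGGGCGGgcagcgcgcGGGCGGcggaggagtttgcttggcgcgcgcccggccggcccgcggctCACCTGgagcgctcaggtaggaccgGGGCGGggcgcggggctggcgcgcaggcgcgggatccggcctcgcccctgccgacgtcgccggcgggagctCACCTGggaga
Galnt6, chr15:100729327-100729626, minus strand: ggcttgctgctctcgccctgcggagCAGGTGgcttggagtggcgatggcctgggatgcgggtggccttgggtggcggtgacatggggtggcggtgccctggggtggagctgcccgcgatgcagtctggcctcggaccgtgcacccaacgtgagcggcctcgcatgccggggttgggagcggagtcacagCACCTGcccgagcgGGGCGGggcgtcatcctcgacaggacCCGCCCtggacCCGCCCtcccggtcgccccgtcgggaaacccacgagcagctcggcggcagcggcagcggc
St3gal6, chr16:58524204-58524503, minus strand: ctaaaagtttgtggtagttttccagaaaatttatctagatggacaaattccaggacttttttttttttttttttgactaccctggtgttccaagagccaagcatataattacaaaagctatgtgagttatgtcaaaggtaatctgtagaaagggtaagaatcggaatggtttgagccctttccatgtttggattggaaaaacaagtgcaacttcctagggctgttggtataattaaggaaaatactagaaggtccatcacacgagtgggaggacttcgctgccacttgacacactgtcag
St6gal1, chr16:23224490-23224789, plus strand: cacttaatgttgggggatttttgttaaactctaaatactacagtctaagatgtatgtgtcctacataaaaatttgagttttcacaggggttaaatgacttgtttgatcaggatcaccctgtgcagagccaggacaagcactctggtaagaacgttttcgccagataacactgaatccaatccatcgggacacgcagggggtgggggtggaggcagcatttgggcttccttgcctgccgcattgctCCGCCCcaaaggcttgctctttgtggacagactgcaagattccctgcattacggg

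The windows of Galnt3 and Galnt6 were GC-rich, with 76.7% and 73.7% G or C, against a mean of 53.8% over all windows. Those of the called genes Galnt7 (75%), St3gal4 (74%) and St3gal3 (70%), which are not shown, were GC-rich too. The Galnt3 window held CAGGTG in 3 places and the GC box in 3, and that of Galnt6 held CAGGTG in 2 places and the GC box in 3. The Galnt7 window held the GC box in 2 places and no CAGGTG. The CAGGTG letters were in 20.2% of all 32851 promoter windows, in 6 of the 41 member windows and in 2 of the 7 windows of called members. The GC box was in 35.7% of all windows, 32 of the 41 member windows and 6 of the 7. All windows take in every RefSeq start of any gene, and the members have 1 window each. The shares are therefore not on the same basis. The St3gal6 window had 38.7% G or C and none of the 7 motifs, and the St6gal1 window had 48% and the GC box in 1 place. St6gal1 has 3 starts in RefSeq, and which of them these cells used was not measured. The start of the Galnt3 window lies 201 bases from the annotated gene start. The bases at the end of that window were not found in an annotated Galnt3 transcript, so its start is uncertain. Those of the St3gal3 window were not found in an annotated St3gal3 transcript either. The start of the St3gal4 window lies 2404 bases from the annotated gene start. The starts of these windows are therefore uncertain too. The other 5 motifs were in none of the 7 windows. Of all windows the TCF/LEF letters were in 3.73% (form ending in T) and 5.14% (form ending in A), the T-box letters in 3.98%, the ETS letters in 8.86% and the second E-box in 16.3%. A match of letters is a description and not a site.

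The core 1 and core 2 genes did not pass in limma, edgeR or DESeq2, and of them C1galt1c1 alone had an unadjusted p below 0.05 in limma. C1galt1, which adds galactose to GalNAc to make core 1, measured 2340, 1920 and 2134 normalized counts in KO libraries, against 1994, 2352 and 1973 in WT libraries. The groups overlapped fully (log2 fold change 0.02, 95% interval -0.19 to 0.23, adjusted p = 0.947), and the sign turned without KO library 1, WT library 1 or WT library 3. C1galt1c1, the chaperone that C1galt1 needs to fold, measured 287, 208 and 218 in KO libraries, against 178, 191 and 180 in WT libraries (log2 fold change 0.36, 95% interval 0.05 to 0.68, adjusted p = 0.176). KO library 1 stood above the other KO libraries.

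Gcnt1 makes the core 2 branch, whose epitope on CD43 is used to tell effector CD8+ T cells from naive ones. It measured 114, 118 and 132 normalized counts in KO libraries, against 99.1, 129 and 79.6 in WT libraries. WT library 2 lay among the KO libraries, and Gcnt1 was not called (adjusted p = 0.466; log2 fold change 0.27 with a 95% interval of -0.15 to 0.69). Its log2 fold change was 0.44 without WT library 2 (adjusted p = 0.111) and 0.10 without WT library 3 (adjusted p = 0.879). Gcnt2, the I-branching enzyme, measured 23.2 to 34.7 in KO and 22.8 to 33.7 in WT libraries.

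Among the enzymes that extend chains, B3gnt9 fell. B3gnt9 belongs to the family that adds GlcNAc in β1,3 linkage, and it measured 89.0, 108 and 95.2 normalized counts in KO libraries, against 152, 159 and 173 in WT libraries. The highest KO library was well under the lowest WT library (1.65-fold lower in KO, log2 fold change -0.72, SE 0.14, limma adjusted p = 0.0196). It was called in 3 of the 6 fits with a library dropped: without KO library 2, WT library 1 or WT library 2 (adjusted p up to 0.112). D230025D16Rik shares 16.5% of its exon length on the other strand and measured 432 to 455 normalized counts in KO and 457 to 470 in WT libraries, so without known strand the level of B3gnt9 is uncertain.

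B3gnt2, the main enzyme of poly-lactosamine, measured 391, 397 and 373 normalized counts in KO libraries, against 436, 486 and 533 in WT libraries, without overlap (log2 fold change -0.32, 95% interval -0.54 to -0.10, adjusted p = 0.0985). Another gene model on the same strand shares 58.6% of its exon length, so this count is uncertain. B3gnt5, which starts lacto-series glycolipids, measured 1185, 1147 and 1193 in KO libraries, against 1056, 1104 and 888 in WT libraries, in the other direction (0.22, 95% interval 0.02 to 0.42, adjusted p = 0.199). B3gnt3 measured 104, 108 and 96.2 in KO and 64.4, 83.3 and 79.6 in WT libraries (adjusted p = 0.166).

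None of the 6 tested B4galt genes passed in limma, edgeR or DESeq2, and 3 had an unadjusted p below 0.05 in limma. B4galt1 measured 4474, 4658 and 4412 normalized counts in KO libraries, against 5243, 4963 and 5291 in WT libraries, without overlap (log2 fold change -0.19, 95% interval -0.34 to -0.05, adjusted p = 0.117). B4galt4 was low and ran the other way, with 31.5, 39.1 and 28.8 normalized counts in KO libraries, against 16.4, 16.9 and 14.2 in WT libraries (log2 fold change 1.01, 95% interval 0.39 to 1.63, adjusted p = 0.0674). It was called without WT library 2 (adjusted p = 0.0485). B4galt7, which builds the linker of proteoglycan chains, had log2 fold change -0.20 (adjusted p = 0.196). B3galt6, which adds the next galactose of that linker, measured 108, 127 and 122 in KO and 119, 117 and 101 in WT libraries, and its sign turned after quantile normalization. B3galt4, which acts on gangliosides, measured 466, 494 and 393 in KO and 416, 482 and 471 in WT libraries (adjusted p = 0.945), with a sign that turned without KO library 3, WT library 2 or WT library 3.

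Of the fucosyltransferases, Fut7 came closest to passing. Fut7 adds the fucose of sialyl Lewis x, the cap that selectins bind, and measured 281, 262 and 287 normalized counts in KO libraries, against 192, 225 and 158 in WT libraries. The groups did not overlap (log2 fold change 0.54, 95% interval 0.23 to 0.85, adjusted p = 0.0548), and it passed without WT library 2 (adjusted p = 0.0054) and in DESeq2 (adjusted p = 0.0352). Fut8, which makes the core fucose of N-glycans, measured 1143, 1059 and 1091 in KO and 1005, 1233 and 1152 in WT libraries (log2 fold change -0.04, 95% interval -0.23 to 0.16). Fut11 measured 739, 729 and 665 in KO and 717, 698 and 750 in WT libraries (-0.02, 95% interval -0.20 to 0.16).

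No N-glycan branching gene passed, though all 6 had a log2 fold change below 0; 2 had an unadjusted p below 0.05, edgeR called none and DESeq2 called Mgat4a. Mgat4a, which adds the β1,4 branch, measured 339, 396 and 405 normalized counts in KO libraries, against 539, 477 and 488 in WT libraries. The groups did not overlap, and the value lay just outside the threshold (log2 fold change -0.40, SE 0.10, adjusted p = 0.0521). Its paralogue Mgat4b measured 151, 185 and 153 in KO and 219, 190 and 208 in WT libraries (log2 fold change -0.34, adjusted p = 0.176).

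Mgat5, which adds the β1,6 branch that binds galectins and is known in mice to raise the threshold of T cell receptor signalling, measured 486, 507 and 545 in KO libraries, against 599, 546 and 523 in WT libraries (-0.12, 95% interval -0.32 to 0.09, adjusted p = 0.508). Mgat1, which opens the way to complex chains, had log2 fold change -0.05 (95% interval -0.21 to 0.11). Mgat2 measured 2495, 2343 and 2084 in KO and 2115, 2480 and 2325 in WT libraries; its log2 fold change of -0.00042 turned sign with TMM factors (0.01) and after quantile normalization (0.04).

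The 3 mannosidases that trim N-glycans had small differences, with none called by limma, edgeR or DESeq2 and 1 at an unadjusted p below 0.05 in limma. Man2a1 measured 4477, 4405 and 4375 normalized counts in KO libraries, against 5011, 4918 and 5015 in WT libraries. Each group was tight and the groups did not overlap, yet Man2a1 was not called (adjusted p = 0.134; log2 fold change -0.17 with a 95% interval of -0.31 to -0.04). Man1a2 (log2 fold change -0.14, adjusted p = 0.29) and Man2a2 (-0.25, adjusted p = 0.288) did not pass either.

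Around these enzymes, 6 lists of other glycosylation genes held 179 tested genes, of which 2 rose and 7 fell (5.03%, against 5.19% of all tested genes). Of 41 nucleotide sugar genes 1 rose, none fell and the median log2 fold change was -0.06. The rise was that of Pmm1, a phosphomannomutase, with 586, 533 and 444 normalized counts in KO libraries, against 269, 423 and 298 in WT libraries (adjusted p = 0.0463). Cmas, which makes the CMP-sialic acid that all sialyltransferases use, measured 1675, 1441 and 1617 in KO libraries, against 2051, 1950 and 1858 in WT libraries. It lay just outside the threshold in limma (log2 fold change -0.31, adjusted p = 0.051). Of these 41 genes edgeR called none, Pmm1 included, and DESeq2 called Cmas, Pgm2 and Pmm1.

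Of 32 genes of trimming, sialidases and other transferases 2 fell and none rose (median -0.04). Lfng, the Fringe enzyme that adds GlcNAc to O-fucose on Notch, measured 8942, 10092 and 7986 normalized counts in KO libraries, against 14850, 12611 and 14854 in WT libraries (1.57-fold lower in KO, log2 fold change -0.65, SE 0.10, adjusted p = 0.00695). Ggta1, the α1,3-galactosyltransferase, which caps the same lactosamine ends as the sialyltransferases, measured 554, 541 and 578 in KO and 722, 819 and 734 in WT libraries (log2 fold change -0.44, adjusted p = 0.016). Of 20 sulfation genes 3 fell and none rose (median -0.12). They were Hs3st3b1, a heparan sulfate 3-O-sulfotransferase (-0.66, adjusted p = 0.0153), Chst11, a chondroitin 4-O-sulfotransferase (-0.47, adjusted p = 0.0223), and Chst10, the HNK-1 sulfotransferase (-0.34, adjusted p = 0.0317).

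Of 30 carrier glycoprotein and lectin genes 1 rose and 2 fell (median -0.11). Selplg, which encodes PSGL-1, the protein that carries selectin ligands on T cells, measured 20980, 23708 and 20059 normalized counts in KO libraries, against 28576, 26378 and 29482 in WT libraries (1.31-fold lower in KO, log2 fold change -0.39, SE 0.09, adjusted p = 0.0373). Spn, which encodes CD43, measured 29412, 33359 and 29031 in KO and 34443, 31505 and 36975 in WT libraries and did not pass (log2 fold change -0.16, adjusted p = 0.361). Cd96, a receptor of the immunoglobulin family, fell (-0.36, adjusted p = 0.0222) and Emb, embigin, rose (0.50, adjusted p = 0.0207). None of 32 N-glycan assembly genes (limma; smallest adjusted p = 0.0796, Alg10b) and none of 24 Golgi machinery genes (smallest adjusted p = 0.0563, Tmem165) was called. At an unadjusted p below 0.05 there were 3 of the assembly genes and 4 of the Golgi machinery genes. edgeR called none of either list, and DESeq2 called Tmem165.

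**Figure D5:**
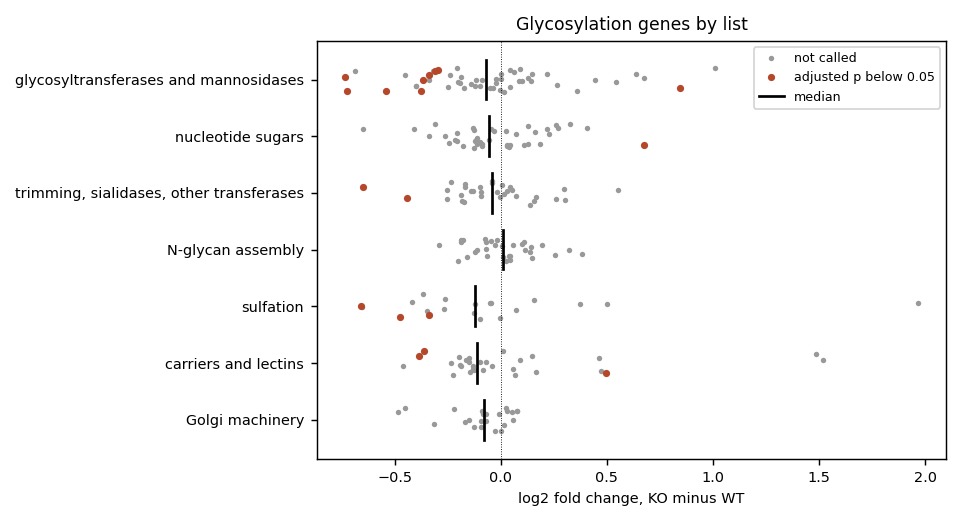
Log2 fold change (KO minus WT) of each tested gene in the glycosyltransferase and mannosidase set and in 6 lists of other glycosylation genes; each point is a gene, vertical bars are medians, coloured points passed an adjusted p of 0.05, and the vertical spread within a row carries no value. The medians lie between -0.12 (sulfation) and 0.01 (N-glycan assembly).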

How the data were processed

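RNA was measured in 6 libraries of sorted spleen CD8+ T cells. The authors deposited 1 table of normalized counts, a signal in which each library's reads were divided by a size factor. Reads were aligned to mm10, per the submitters' processing notes; the sources used here name no aligner, counter or strand setting. Ensembl IDs were given symbols and exon lengths from GENCODE M21 (GRCm38): 13653 of 13675 matched. Each value is a whole multiple of what 1 read is worth in its library. After division by that step 100% of values were whole within 0.01, against 1.43% to 1.76% before, and 14746864 to 22931296 reads per library were recovered. Every pair of libraries differed by more than sampling noise (smallest chi-square over its degrees of freedom 5.32, WT libraries 1 and 3). WT library 2 stood apart from its group on this measure, at 19.1 and 18.5 against WT libraries 1 and 3. Against KO libraries 1, 2 and 3 it gave 15.8, 12.9 and 14.6. The cause was not tested.

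The main test was limma 3.58.1 in R 4.3.3 on log2(normalized count + 1), with empirical Bayes and a variance trend, for genes with a mean of at least 10, two-sided, with Benjamini-Hochberg adjustment over all 13654 genes tested. The pseudocount understates the fold change of low genes. On recovered reads, edgeR 4.0.16 called 645 genes and DESeq2 1.42.0 called 1006, against 708 in limma. Other alternatives changed the pseudocount, filter, scaling, variance trend, library weights, replicate block, libraries and a B cell covariate. The fit was tested on simulated data.

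Members, gene lists and tests were chosen with earlier results of these data known. Named genes were the called members, Gcnt1, St3gal1 and St6gal1, in each linkage class the member with the highest level per kb and that with the smallest p, and the called genes of each list, or that with the smallest p where none was called. Other members are named with their values to account for each class. Man1a, which has no number after the family name, was not a member. Promoter windows are those of RefSeq on GRCm38.p6.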

Additional observations from a re-analysis of the deposited data

How the results depend on the processing

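All 9 called glycosyltransferase genes kept their direction in 19 of 19 alternatives, but the counts of calls did not hold. The kept direction is a weak check. The filter, variance trend and replicate block leave the fold change as it was. In the 9 genes the groups do not overlap, so leaving out or weighting libraries cannot turn the sign. Against 9 members, 9 pathway-list genes and 708 genes in all, quantile normalization called 5 members. No variance trend called 2 members, 0 list genes and 141 genes. Array weights called 24, 40 and 2676, and the B cell covariate called 1, 0 and 105. Leaving out KO libraries 2 and 3 leaves 1 KO library, so the calls of that fit are not counted here. TMM factors and edgeR each called 6 members. A filter at a mean of 50 and DESeq2 each called 14 list genes. Leaving out 1 library at a time called 1 to 16 members, 1 to 28 list genes and 200 to 2028 genes, with the highest counts without WT library 2. Over all genes that library lay nearer to each KO library than to the other WT libraries, by chi-square over its degrees of freedom. A replicate block called 1 member (Galnt3, adjusted p = 0.0263), 2 list genes and 197 genes. Whether the library numbers pair the samples is not given in the labels. Deviations of same-numbered libraries from their group means correlated at -0.54, -0.27 and -0.23. Deviations within a group of 3 depend on one another, so these values cannot decide it.

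Over the named members, alternatives gave 335 values on the same side of the threshold, 80 weaker, 16 stronger and 24 with the other sign, all 24 in genes with no call. With KO libraries 2 and 3 left out the log2 fold change was 0.034 for B3galt4, -0.043 for B3galt6, 0.035 for Fut11 and 0.12 for Mgat2, and with the B cell covariate 0.042, -0.054, 0.033 and 0.12. Quantile normalization gave -0.0012 for B3galt6 and 0.044 for Mgat2; for Mgat2, TMM factors gave 0.012, edgeR 0.012 and DESeq2 0.00027. Leaving out 1 library gave -0.053 to 0.099 for C1galt1, -0.090 to 0.076 for B3galt4, -0.052 to 0.025 for Fut11 and -0.061 to 0.071 for Mgat2. The cause was not tested. None of the 9 members with a mean under 50 normalized counts was called by limma; of these B4galt4 was called with no variance trend (adjusted p = 0.0389), with array weights (0.0176) and without WT library 2 (0.0485), and St3gal5 with array weights (0.0454).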
